A study of Mus musculus with 27 samples.

Results

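Livers of mice that had eaten for 240 min after a 16 h fast were compared with livers of fasted mice that had for the same 240 min only been able to sense food. There were 6 libraries, 3 refed and 3 with caged food, out of 27 in the whole series, and they were chosen by the names of their columns in the deposited table. All mice were wild type (WT), of the strain given as C57/BLN6, and the tissue was liver. Refed mice had free access to food after the fast, whereas in the caged food groups the food lay in a small cage inside the home cage, so it could be seen and smelled and not eaten. The other 21 libraries are 3 of livers taken after the fast alone and 3 each of refed and caged food livers at 30, 60 and 120 min. Sex and age are not given in the sources used here, and the series speaks of biological replicates without naming the animals. If any libraries of a group came from one animal, the p-values below would measure a partly technical spread.

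For 2 of the 6 libraries the labels conflict. Refed replicate 3 carries a treatment label that names caged food at 240 min, and caged food replicate 1 carries one that names refeeding at 240 min, while the titles and column names say the reverse. The titles were followed. As a check, each library was scored over the 200 genes that best separated the refed from the caged food groups at 120 min by p, which are other libraries. The score averages, over those genes, how far the library lay from the 6-library mean in log2, with the sign turned so that positive is the refed side. It was 0.769, 0.571 and 0.496 in refed replicates 1 to 3 and -0.639, -0.611 and -0.587 in caged food replicates 1 to 3. All 6 libraries therefore lay on the side of their titles, and the count of each gene list is also given without the 2 libraries in conflict. Estimated depth was 49.1, 42.6 and 28.9 M assigned reads in refed replicates 1 to 3 and 44.8, 31.2 and 25.6 M in caged food replicates 1 to 3, against 25.6 to 52.4 M over all 27 libraries. The 3 shallowest of the 6 are the same 3 whose treatment label says caged food.

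Feeding switches the liver from releasing glucose and burning fat to storing glucose and making fat. Insulin, which rises with a meal, inactivates FOXO1, a transcription factor that drives the genes of gluconeogenesis. In the fast, PPAR-alpha keeps genes of fatty acid oxidation high. A meal also raises the load of secretory proteins that must be folded in the endoplasmic reticulum (ER), and the unfolded protein response, through the sensors IRE1, PERK and ATF6, raises the chaperones that fold them.

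At 240 min, eating set the liver far apart from sensing food. Values are normalised read counts per gene, and differences are given as log2 of the value plus 1, refed minus caged food, ± the standard error (SE) of limma, with Benjamini-Hochberg p-values taken over all 15932 genes that entered the test. A gene was called, and is said to have risen or fallen in refed livers, at an adjusted p under 0.05. Of the genes tested 4303 were called, 2329 higher (14.6%) and 1974 lower (12.4%), and 763 of them differed more than 2-fold. In 3399 genes (21.3%) all 3 refed libraries lay above all 3 caged food libraries, and in 3244 (20.4%) all lay below. The median difference over all genes was -0.0045, which the scaling of the deposited values sets near 0. Without the 2 libraries in conflict 3131 genes were called, 1760 higher and 1371 lower. These counts over all genes are the background for the list counts below. Leaving out 1 library at a time left between 3040 (without refed replicate 1) and 4009 (without refed replicate 3). When the 2 libraries were instead moved to the group of their treatment label, 1 gene was called.

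Caged food livers at 240 min were close to fasted livers. No gene was called between these groups with limma (0%). Its unadjusted p was under 0.05 in 752 of 15932 genes, no more than that threshold passes where no gene differs. Against the same fasted livers, refed livers at 240 min differed in 3879 genes, 2062 higher (12.9%) and 1817 lower (11.4%). Both comparisons share the fasted libraries, which were taken after the 16 h fast alone. Caged food mice went 240 min longer without eating, so length of fast and sensing food cannot be told apart there.

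Hepatocyte markers were abundant in every library, as the label liver requires. The 9 hepatocyte markers tested summed to between 4127626 and 5148556 in the refed and between 4926644 and 5056952 in the caged food libraries, with none called. No marker of Kupffer cells (10 tested), stellate cells (10), leukocytes (11) or erythroid cells (6) was called. Of the sinusoidal endothelial markers 4 of 10 fell, by between 0.33 and 0.48, among them Oit3 and Kdr. In cholangiocytes, 2 of 8 markers rose, Sox9 and Krt19. Among all genes tested 12.4% fell and 14.6% rose. In bulk tissue, fewer cells of a type and less RNA per cell cannot be told apart. Transcripts of the pancreas were near 0. Its 16 markers summed to 106, 7 and 13 in refed replicates 1 to 3 and to 40, 44 and 12 in caged food replicates 1 to 3, and 3 of the 16, among them both insulin genes, were at 0 in all 6 libraries.

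**Figure D1:**
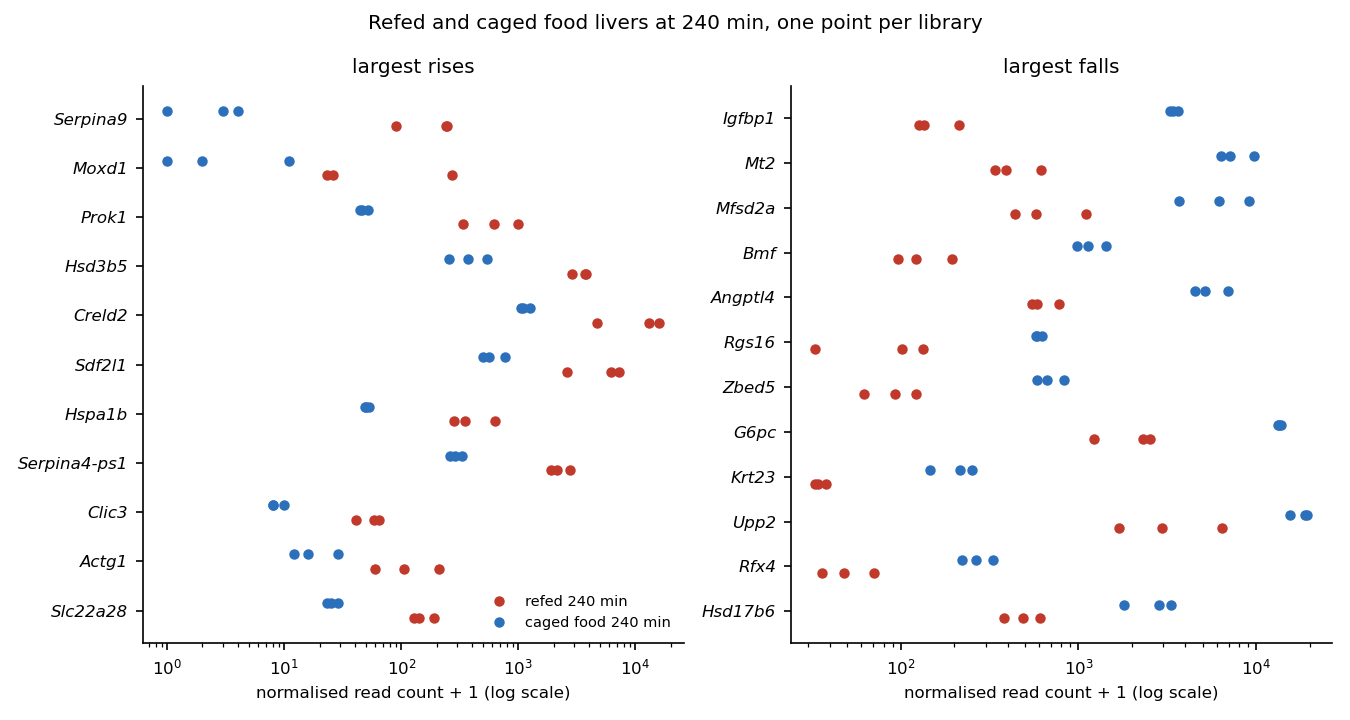
Normalised read counts plus 1, on a log scale, of the largest rises and falls in refed against caged food livers at 240 min, with 1 point per library (red refed, blue caged food, 3 each). The groups do not overlap in any of these genes, which the choice of genes required, and the refed libraries of Moxd1 and Creld2 are spread more widely than those of Hsd3b5.

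Genes of glucose output fell. Of 22 genes of gluconeogenesis and other FOXO1 targets 16 fell and none rose, with a median difference of -0.64. Without the libraries in conflict 14 fell. Igfbp1, a secreted binding protein that limits insulin-like growth factors, had 125, 211 and 134 in the refed and 3283, 3392 and 3633 in the caged food libraries. It fell further than any other gene named here (-4.49 ± 0.57, adjusted p = 3.47e-06), and the caged food values were narrowly grouped. G6pc, the catalytic subunit of glucose 6-phosphatase, which releases free glucose, had 1215, 2316 and 2539 in the refed against 13875, 13308 and 13371 in the caged food libraries (-2.81 ± 0.28, adjusted p = 1.27e-07). Pck1, which makes phosphoenolpyruvate from oxaloacetate, had 37730, 114098 and 51801 against 255938, 305890 and 248387 (-2.15 ± 0.26, adjusted p = 2.34e-06). Refed replicate 2 was the highest of its group for both Igfbp1 and Pck1, yet below every caged food library. Got1 and Sds, which feed amino acid carbon into the pathway, fell by 1.81 and 1.73. Irs2, an insulin receptor substrate that rises in fasting, fell by 1.37.

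Genes of glucose use and sensing moved in both directions. In the list of glycolysis and glucose sensing 7 of 22 genes rose and 3 fell, with a median of 0.19, and without the libraries in conflict 5 rose and 3 fell. Over all genes tested 14.6% rose and 12.4% fell, so the falls were near that share. Pfkfb3, which makes the activator of phosphofructokinase, rose by 1.40 ± 0.24, and Pklr, liver pyruvate kinase, by 0.84 ± 0.17. Txnip and Arrdc4, arrestin-domain genes that restrain glucose uptake and respond to glucose through ChREBP, fell, Txnip from 4876, 3857 and 5213 in caged food to 2380, 2114 and 2568 in refed libraries (-0.97 ± 0.11, adjusted p = 5.51e-07). Of the insulin and IGF signalling list 5 of 23 genes rose and 8 fell, and without the libraries in conflict 4 rose and 5 fell. Besides Igfbp1 and Irs2, the pseudokinase gene Trib3 was among the falls (-2.00 ± 0.28), while Pik3r1, a regulatory subunit of PI3 kinase, and Igfals, the acid-labile subunit that holds IGF1 in the blood, were among the rises (0.69 ± 0.14 and 0.90 ± 0.22).

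Among glycogen genes, subunits that target protein phosphatase 1 to glycogen went in opposite directions. Ppp1r3b, the main targeting subunit of liver, had 16756, 12630 and 24175 in the refed and 4459, 7129 and 2575 in the caged food libraries (1.99 ± 0.36, adjusted p = 0.000251). Ppp1r3g, a targeting subunit known from fasted liver, was nearly silent after eating, with 0, 2 and 3 against 43, 24 and 37 (-3.92 ± 0.76, adjusted p = 0.000427). The groups do not overlap in either gene, but the size for Ppp1r3g rests on values close to 0. Gys2, liver glycogen synthase, fell by 0.99 ± 0.16. Over the list of 21 glycogen genes 4 rose and 4 fell, and without the libraries in conflict 2 rose and 3 fell. The shares over all genes were 14.6% higher and 12.4% lower.

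Genes of fatty acid synthesis rose in part. Fasn, fatty acid synthase, had 8384, 8205 and 8705 in the refed and 3010, 2773 and 2842 in the caged food libraries (1.55 ± 0.12, adjusted p = 7.24e-09). Both groups were narrow, and the difference of 2.93-fold was many times their spread. Acaca, acetyl-CoA carboxylase, rose by 0.67 ± 0.09, its activator Mid1ip1 by 1.29 ± 0.24 and Nr1h3, the nuclear receptor LXR-alpha, by 0.54 ± 0.07. In all 7 of 24 genes of the lipogenesis list rose and 4 fell, and without the libraries in conflict 5 rose and 4 fell. Among all genes tested 14.6% rose and 12.4% fell. The falls included Lpin2, a phosphatidate phosphatase, which had 3639, 4644 and 4289 against 15044, 18912 and 16024 (-1.99 ± 0.17, adjusted p = 1.82e-08). The median of the list was 0.11, and -0.038 without the libraries in conflict. The list medians of the libraries lay 0.16, 0.049 and 0.20 above the fasted mean in refed replicates 1 to 3 and between -0.17 and 0.0074 from it in the caged food libraries.

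Cholesterol synthesis showed 9 rises and 1 fall, Hsd17b7 (-0.56, named after its values were seen), among 25 genes, with a median of 0.36. Mvd and Sqle, enzymes of the early and middle pathway, rose by 1.99 ± 0.27 and 1.93 ± 0.32, and Fdps, farnesyl diphosphate synthase, by 1.74 ± 0.36. In this group of genes the refed libraries agree closely, with list medians of 0.37, 0.39 and 0.37 above the fasted mean. The caged food libraries lay between -0.097 and 0.073 on that scale. Without the libraries in conflict 7 genes rose and 1 fell.

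Of 34 PPAR-alpha targets 16 fell and none rose, with a median of -0.48, and without the 2 in conflict 7 fell, with a median of -0.41. Angptl4, a secreted inhibitor of lipoprotein lipase, had 547, 775 and 586 in the refed and 5139, 6953 and 4519 in the caged food libraries (-3.11 ± 0.22, adjusted p = 2.37e-09). Mfsd2a, a transporter of lysophosphatidylcholine that rises in fasted liver, had 439, 1097 and 576 against 6211, 9157 and 3665 (-3.18 ± 0.40, adjusted p = 3.58e-06). These were the largest falls in the list. Cpt1a, the gate of fatty acids into mitochondria, dropped to less than the caged food level in every library, with 20894, 26737 and 27013 against 53240, 51921 and 52643 (-1.09 ± 0.12, adjusted p = 3.28e-07). Acadl and Creb3l3 fell by 0.48 each.

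The secreted lipase inhibitor Angptl8, listed in the table under the symbol Gm6484, rose where its relative Angptl4 fell. It had 11616, 7543 and 6871 in the refed and 734, 860 and 624 in the caged food libraries (3.52 ± 0.30, adjusted p = 2.22e-08), an 11.5-fold difference with every refed library far above every caged food library. Of the 24 genes that control circulating lipids it was the only one to rise, and 5 fell, or 3 without the libraries in conflict. Apoa5, an activator of lipoprotein lipase, fell by 0.88 ± 0.11, Lipc, hepatic lipase, by 0.63 ± 0.17 and Scarb1, the receptor for high-density lipoprotein, by 0.51 ± 0.12. Lipc lost the call without those libraries (adjusted p = 0.0532).

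Genes that fold proteins in the ER rose. Of 26 chaperones and folding factors 20 rose and none fell, with a median of 0.84, and without the libraries in conflict 21 rose, with a median of 1.01. Hspa5, the ER chaperone BiP, had 149335, 147147 and 76420 in the refed and 25342, 26498 and 35581 in the caged food libraries (2.04 ± 0.22, adjusted p = 3.94e-07). Hyou1 and Manf, an ER chaperone and a secreted stress-induced factor, rose by 2.33 ± 0.21 and 2.37 ± 0.26. Creld2, an ER-resident protein induced by ER stress, had 13142, 16000 and 4734 against 1098, 1053 and 1264 (3.14 ± 0.33, adjusted p = 3.28e-07), and Sdf2l1, a partner of BiP, had 6228, 7252 and 2627 against 555, 495 and 768 (3.04 ± 0.36, adjusted p = 1.46e-06). Refed replicate 3 was the lowest refed library for each of Hspa5, Creld2 and Sdf2l1, though above all caged food libraries. The median of the whole list lay 1.04, 1.22 and 0.54 above the fasted mean in refed replicates 1 to 3 and -0.0061, -0.013 and 0.23 from it in caged food replicates 1 to 3. Refed replicate 3 is the shallowest of the refed libraries and 1 of the 2 in conflict. Between the deeper libraries (refed 1 and 2 against caged food 1) the difference for Creld2 was 3.72, and between the shallower ones (refed 3 against caged food 2 and 3) it was 2.04.

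The motif known as the ER stress element, CCAAT and CCACG with 9 bases between them, was searched on both strands in the 250 bases before the start of each gene. The promoters come from RefSeq (build GRCm38.p6) and matched 11172 of the genes tested by symbol, of which 18 (0.161%) held it. Of those 18 genes 13 rose in refed livers and none fell, against 1776 that rose and 1402 that fell among the 11172. The 13 include members of the ER lists given here as rising. It was found in 7 of the 21 promoters matched for the chaperone list and in 2 of the 15 matched for ER-associated degradation, against 35 of all 27025 symbols in the promoter table (0.13%). The windows are 100 bases long, lie within the 250 bases before the start and read 5′ to 3′ on the strand of the gene. They are those of the genes of these 2 lists that hold the element, all of which rose, with both elements of Hsp90b1, and capitals mark its outer parts, which read CGTGG and ATTGG where the element lies on the other strand.
Hspa5, chr2:34771985-34772084, + strand: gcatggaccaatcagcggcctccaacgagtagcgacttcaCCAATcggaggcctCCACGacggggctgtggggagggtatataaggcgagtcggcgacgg
Creld2, chr15:88819480-88819579, + strand: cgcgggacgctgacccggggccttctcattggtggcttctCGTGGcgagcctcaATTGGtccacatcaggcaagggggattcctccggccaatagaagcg
Hsp90b1, chr10:86705492-86705591, - strand: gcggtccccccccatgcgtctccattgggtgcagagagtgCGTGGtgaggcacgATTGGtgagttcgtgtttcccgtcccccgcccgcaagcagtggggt
Hsp90b1, chr10:86705595-86705694, - strand: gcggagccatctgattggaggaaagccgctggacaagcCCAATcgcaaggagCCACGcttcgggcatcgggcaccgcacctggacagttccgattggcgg
Calr, chr8:84847034-84847133, - strand: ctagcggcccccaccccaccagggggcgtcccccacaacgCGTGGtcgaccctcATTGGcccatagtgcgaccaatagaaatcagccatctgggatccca
Pdia6, chr12:17266451-17266550, + strand: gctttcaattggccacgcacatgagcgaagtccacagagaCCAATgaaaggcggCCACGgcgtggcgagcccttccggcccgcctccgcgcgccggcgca
Canx, chr11:50325759-50325858, - strand: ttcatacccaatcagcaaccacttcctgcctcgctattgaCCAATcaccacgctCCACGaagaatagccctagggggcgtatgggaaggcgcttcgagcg
Dnajc3, chr14:118937787-118937886, + strand: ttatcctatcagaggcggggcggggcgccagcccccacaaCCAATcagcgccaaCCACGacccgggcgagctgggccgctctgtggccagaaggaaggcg
Syvn1, chr19:6046476-6046575, + strand: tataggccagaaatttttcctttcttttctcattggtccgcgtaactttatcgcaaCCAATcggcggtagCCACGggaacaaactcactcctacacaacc
Derl3, chr10:75893202-75893301, + strand: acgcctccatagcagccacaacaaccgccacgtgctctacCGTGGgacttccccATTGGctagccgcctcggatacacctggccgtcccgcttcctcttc

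The genes with these promoters differed in size of response. Hspa5 and Creld2 are given above. Hsp90b1, the ER form of the 90 kDa heat shock protein, rose by 1.51 ± 0.24, Pdia6, a disulfide isomerase, by 1.23 ± 0.20 and Calr, a lectin chaperone, by 1.07 ± 0.19. Canx and Dnajc3 also hold the element and rose by 0.57 ± 0.10 and 0.74 ± 0.14. The element of Creld2 is also that of Alg12, a mannosyltransferase of N-glycosylation read from the opposite strand, which rose by 1.16 ± 0.14. The element of Calr is likewise that of 1700122E12Rik on the opposite strand, a gene of very low values that was not called (0.59 ± 0.62, adjusted p = 0.526). Sdf2l1, which rose as far as Creld2, was not among the genes found to hold the element. Promoters were matched for only 21 of the 26 genes of the chaperone list. Other motifs were searched in the same way. The heat shock element was in 0 of 14 promoters of its list (0.448% of genes tested). The PPAR element was in 0 of 25 (0.0537%), and the sterol element in 0 of 17 promoters of cholesterol genes (0.0716%). The forkhead motif (2.84%) and the cAMP response element (2.96%) were in 0 of 19 gluconeogenesis promoters. At such shares most lists of this size would hold none, so the counts of 0 do not set these lists apart. The cAMP element was in 3 of 21 immediate early promoters. The E-box was in 5 of 17 clock promoters (9.43% of genes tested), but also in 6 of 16 glucocorticoid-induced and 6 of 20 glycolysis ones. The metal response element was in 3 of 10 promoters of the zinc list (23.5% of genes tested). It was also in 9 of 20 promoters of insulin and IGF signalling, so neither motif was particular to its list. A match describes the sequence and does not show that a factor binds there.

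Sensors and transcription factors of the unfolded protein response rose with their targets, 9 of 14 higher and 1 lower, with a median of 0.46, and 8 higher and 1 lower without the libraries in conflict. Ern1, the sensor IRE1, had 5513, 4394 and 5124 in the refed and 2672, 2756 and 2575 in the caged food libraries (0.90 ± 0.09, adjusted p = 2.88e-07). Its target Xbp1 rose by 0.74 ± 0.11, Atf6b by 0.90 ± 0.08 and Wfs1, an ER membrane protein, by 0.92 ± 0.14. Ddit3, the transcription factor CHOP, rose from 222, 262 and 302 to 1141, 1327 and 636 (1.92 ± 0.21, adjusted p = 5.51e-07). The member that fell was Creb3l3, a liver transcription factor also counted among the PPAR-alpha targets. Gene-level values do not tell spliced from unspliced Xbp1.

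ER-associated degradation, which returns misfolded proteins to the cytosol, showed 13 rises and 1 fall, Erlec1 (-0.29, named after its values were seen), among 18 genes, with a median of 0.44, and 11 rises and 1 fall without the libraries in conflict. Syvn1, the ubiquitin ligase HRD1, had 17263, 14661 and 9324 in the refed and 3855, 3592 and 3449 in the caged food libraries (1.88 ± 0.18, adjusted p = 8.83e-08), more than its partner Sel1l (0.71 ± 0.10). Derl3, a channel component, rose by 2.66 ± 0.75, with refed values of 781, 1753 and 121 that differ more than 10-fold among themselves and overlap the caged food values of 87, 45 and 164. Ubxn4, Edem1 and Derl2 rose by between 0.52 and 0.86.

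Later steps of the secretory route rose as well. In the list of ER translocation and export in COPII vesicles 26 of 35 genes rose and 1 fell (median 0.51), and in that of COPI and Golgi trafficking 22 of 30 rose and none fell (median 0.41). Without the libraries in conflict 24 and 22 rose. Sec23b, a COPII coat subunit, had 4724, 4955 and 3804 in the refed and 1757, 1727 and 1583 in the caged food libraries (1.40 ± 0.11, adjusted p = 5.77e-09). The member that fell was its paralogue Sec23a (-0.39 ± 0.09), named after its values were seen. Srprb, part of the receptor for the signal recognition particle, rose by 1.33 ± 0.14, and Tmed3 and Kdelr2, which sort and return cargo between Golgi and ER, by 1.39 ± 0.16 and 0.86 ± 0.08. The changes per gene were small beside those of the chaperones, but the spread within groups was small too.

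The integrated stress response did not move as a block. Of 23 genes controlled by ATF4, 5 rose and 6 fell, and without the libraries in conflict 4 rose and 4 fell. For comparison, 14.6% of all genes tested rose and 12.4% fell. Ddit3 and Atf3, both transcription factors of that response, rose, Atf3 from 24, 47 and 49 to 168, 175 and 98 (1.87 ± 0.27, adjusted p = 1.72e-05). Trib3 and Sesn2 fell, Trib3 from 1371, 1238 and 1176 to 220, 607 and 232, and Sesn2, a sensor of leucine that restrains mTORC1, from 881, 893 and 899 to 232, 476 and 276 (-1.51 ± 0.20, adjusted p = 7.50e-06). In both genes that fell, refed replicate 2 lay closest to the caged food libraries.

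**Figure D2:**
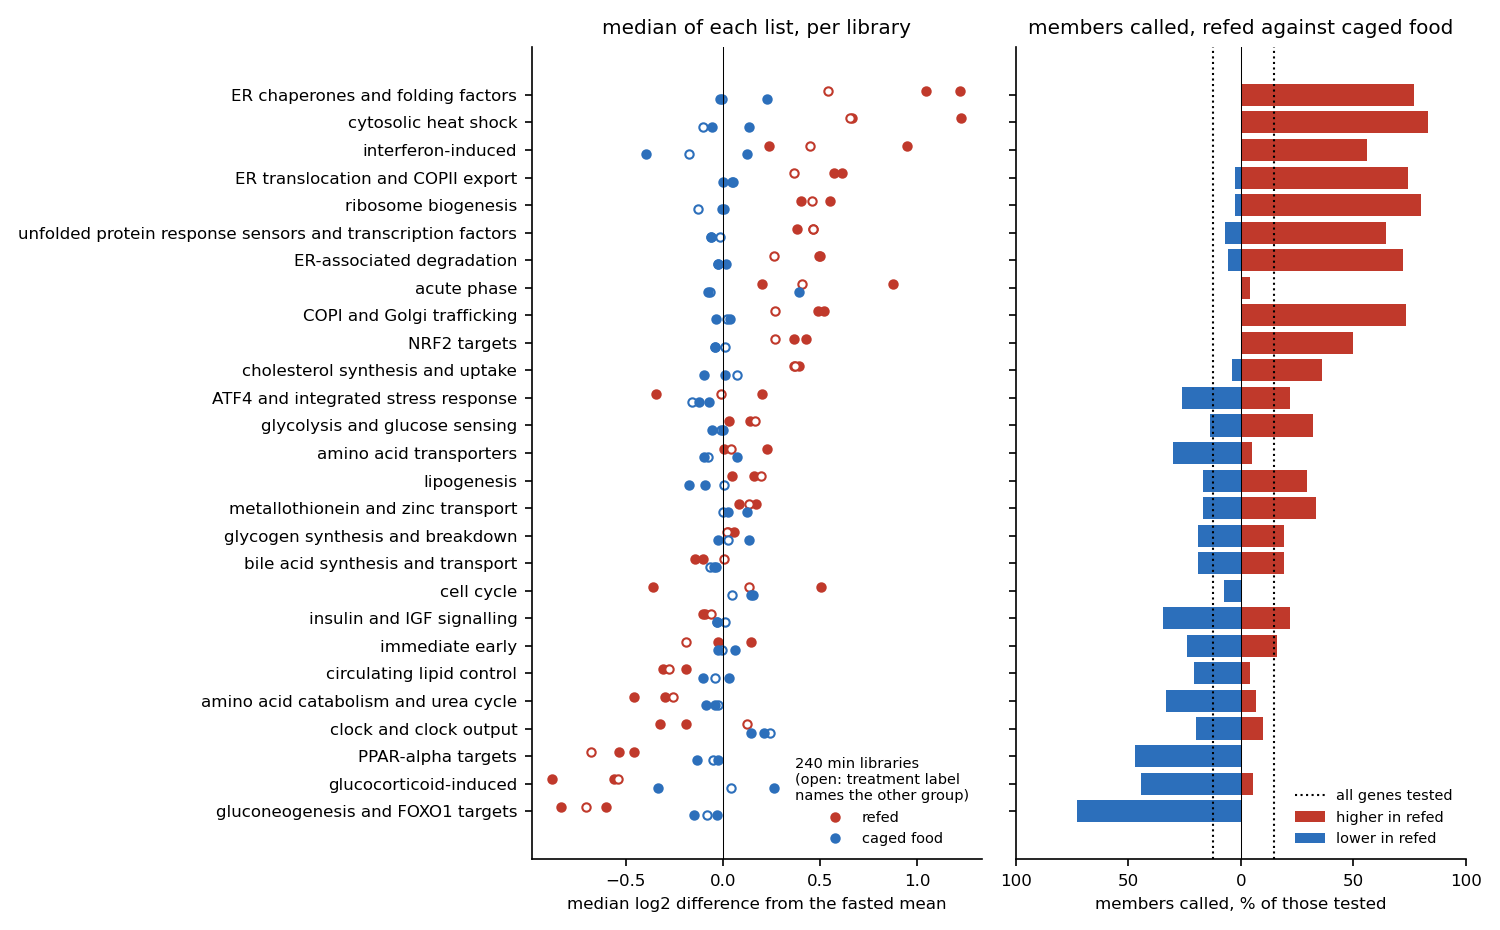
Left, the median log2 difference of each gene list from the fasted mean in each library of 240 min (red refed, blue caged food, open symbols for the 2 libraries whose treatment label names the other group). Right, the percentage of members tested that were called higher (red) or lower (blue) in refed livers, with dotted lines at 14.6% and 12.4%, the shares over all genes. The refed and caged food points are apart in the ER lists, cytosolic heat shock, ribosome biogenesis and gluconeogenesis, and overlap in acute phase and cell cycle.

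Cytosolic chaperones rose beside those of the ER. Of 18 heat shock genes 15 rose and none fell, with a median of 0.74, and the same number rose without the libraries in conflict. Hspa1b, an inducible HSP70, had 628, 351 and 279 in the refed and 49, 48 and 52 in the caged food libraries (2.97 ± 0.41, adjusted p = 8.88e-06). Hspa1a is a near-identical copy and reads may be split between them, so the symbol may stand for both. Hsph1, an exchange factor for HSP70, rose by 1.97 ± 0.18, and the co-chaperones Bag3, Chordc1 and Stip1 by 1.41 ± 0.15, 1.39 ± 0.16 and 1.13 ± 0.11. Hspa8, the constitutive HSC70, had 17164, 8954 and 12522 against 4789, 4953 and 6070 (1.25 ± 0.15, adjusted p = 1.19e-06). For Hspa1b, Hsph1 and Hspa8 refed replicate 1 was the highest library, and the list median of that library lay 1.23 above the fasted mean against 0.66 and 0.65 in the other refed libraries.

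Ribosome biogenesis showed the largest share of members called in one direction after heat shock, with 32 of 40 higher and 1 lower and a median of 0.48. Rrp12, which exports ribosomal subunits, had 1168, 993 and 1228 in the refed and 478, 483 and 461 in the caged food libraries (1.25 ± 0.17, adjusted p = 7.37e-06). Bysl, Nop58 and Nop2, which process and modify ribosomal RNA, rose by 1.18 ± 0.14, 1.09 ± 0.15 and 1.02 ± 0.14. The member that fell was Npm1, a nucleolar chaperone, named after its values were seen (-0.24 ± 0.08). Refed libraries agreed here, with list medians of 0.55, 0.40 and 0.46 above the fasted mean. Without the libraries in conflict 27 rose and none fell.

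Transport and breakdown of amino acids fell in part. Slc7a2, the liver carrier of arginine and lysine, had 16511, 23052 and 21807 in the refed and 92016, 92028 and 75626 in the caged food libraries (-2.09 ± 0.13, adjusted p = 3.49e-10). It was a strong fall of an abundant transcript, with both groups narrow. Slc38a4 and Slc38a2, sodium-coupled carriers of neutral amino acids, fell by 1.04 ± 0.10 and 0.96 ± 0.21, and Slc43a1 by 1.18 ± 0.18. In the list 6 of 20 carriers fell and 1, the taurine carrier Slc6a6, rose by 0.33 (named after its value was seen), while the median was 0.18, so the members that fell were not the middle of the list. Without the libraries in conflict 6 fell and none rose. Among all genes tested 12.4% fell and 14.6% rose. Of 30 genes of amino acid breakdown and the urea cycle 10 fell and 2 rose, with a median of -0.31, and without the libraries in conflict 8 fell and 2 rose. Cth, which makes cysteine from cystathionine, fell by 1.05 ± 0.22, and Gpt2 and Bckdha by 0.48 and 0.31.

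Both metallothioneins listed were lower and 3 carrier genes of the same list higher in refed livers. Mt2, a small metal-binding protein induced by zinc and glucocorticoids, had 390, 340 and 612 in the refed and 7103, 9777 and 6364 in the caged food libraries (-4.13 ± 0.37, adjusted p = 3.62e-08). In fasted livers it was at 4666, 2516 and 3454, so the caged food values at 240 min were the highest of the 3 groups, though Mt2 was not called between caged food and fasted livers (1.15 ± 0.37, adjusted p = 0.994). Slc39a10, a zinc importer, rose from 100, 107 and 123 to 437, 444 and 250 (1.73 ± 0.22, adjusted p = 4.42e-06), the exporter genes Slc30a10 and Slc30a5 by 1.22 ± 0.20 and 0.62 ± 0.12, and Mtf1, the transcription factor that senses zinc, by 0.59 ± 0.10. Of the 12 genes listed 4 rose and 2, Mt2 and Mt1 (-1.53 ± 0.42, named after its values were seen), fell, 6 were not called, and the median was 0.076. Without the libraries in conflict 4 rose and 1 fell. For comparison, 14.6% of all genes tested rose and 12.4% fell.

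Of 18 genes induced by glucocorticoids, stress hormones of the adrenal gland, 8 fell and 1, Pik3r1, rose, with a median of -0.61, and without the libraries in conflict 6 fell and 1 rose. Per1, also a clock gene, had 414, 963 and 1608 in the refed and 3093, 4010 and 1762 in the caged food libraries (-1.70 ± 0.37, adjusted p = 0.00147). Refed replicate 3 and caged food replicate 3 nearly met. Klf9, a transcription factor of the same group, fell by 1.07 ± 0.13, and Nfkbia and Sesn1 by 0.65 ± 0.12 and 0.47 ± 0.09. The clock list had 4 falls and 2 rises among 20 genes, and 3 falls and 1 rise without the libraries in conflict. Over all genes 12.4% fell and 14.6% rose. Per2 rose, from 1222, 1296 and 1262 to 3685, 2956 and 3676 (1.44 ± 0.29, adjusted p = 0.000635), opposite to its relative Per1. Clock rose by 0.38 and Nr1d2 fell by 0.50, and both lost the call without the libraries in conflict or with single libraries left out.

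Of 18 NRF2 targets, which defend against oxidants, 9 rose and none fell, or 8 without the libraries in conflict, with Osgin1 at 11143, 10802 and 6627 against 1708, 1501 and 2839 (2.26 ± 0.28, adjusted p = 3.04e-06) and Gstm3 up by 1.85 ± 0.25. Of 25 immediate early genes 4 rose and 6 fell, or 4 and 4 without those libraries, among the genes that fell Gadd45g (-2.13 ± 0.50) and Junb (-1.57 ± 0.23). In bile acid genes 4 of 21 rose and 4 fell, or 2 and 3 without those libraries, with Nr0b2, the repressor SHP, higher by 1.23 ± 0.28 and Abcb4, the phospholipid exporter, lower by 0.76 ± 0.17. Over all genes tested 14.6% rose and 12.4% fell. Of 25 acute phase genes only Apcs was called (1.48 ± 0.44, adjusted p = 0.0138), and that call was lost without the libraries in conflict (adjusted p = 0.0657). Saa2 had 2307, 1500 and 13145 in the refed and 293, 1861 and 219 in the caged food libraries, which overlap (2.85 ± 1.22, adjusted p = 0.0886). Caged food replicate 2 held most of Saa2 in its group. The SE draws on all 27 libraries, and at 60 min caged food replicate 2 had 52174 of Saa2 against 331 and 473 in replicates 1 and 3. Against fasted livers 6 of the 25 acute phase genes were higher in refed livers at 240 min, and none was lower (12.9% and 11.4% over all genes). Of 26 cell cycle genes 2 fell, Cdkn1b, an inhibitor of the cycle, by 0.42 ± 0.08 and Rrm2, a subunit of ribonucleotide reductase, by 0.81 ± 0.22, and none rose. In both directions these shares were below those over all genes. Rrm2 lost the call without caged food replicate 3 (adjusted p = 0.0509) or refed replicate 2 (adjusted p = 0.0700), and without the libraries in conflict 3 cell cycle genes fell.

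Interferon-induced genes rose at 240 min. Of 25 genes 14 rose and none fell, with a median of 0.64, and 12 rose without the libraries in conflict. Oasl1, a regulator of the antiviral response, had 2917, 1926 and 1983 in the refed and 871, 1063 and 770 in the caged food libraries (1.32 ± 0.18, adjusted p = 1.13e-05). Ddx58, the RNA sensor RIG-I, rose by 0.80 ± 0.11, Mx2 and Irgm1, antiviral GTPases, by 0.90 ± 0.17 and 0.80 ± 0.14, and Stat2, which carries the interferon signal to the nucleus, by 0.60 ± 0.08. Refed replicate 1 was the highest library for all of these. The list median lay 0.95 above the fasted mean in it, against 0.24 and 0.45 in replicates 2 and 3, and -0.18, 0.13 and -0.39 in the caged food libraries. The leukocyte markers, of which none was called, summed to 941, 929 and 1048 in the refed and to 755, 1154 and 834 in the caged food libraries, and their part in the result was not tested.

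Several of the largest changes belong to none of the lists. Serpina9, a clade A serpin, was almost absent from caged food livers, with 246, 89 and 240 in the refed and 0, 3 and 2 in the caged food libraries (6.26 ± 0.66, adjusted p = 3.28e-07). The size of that difference rests on values near 0 and depends on the added 1. Prok1, a secreted prokineticin, had 988, 333 and 619 against 43, 45 and 51 (3.64 ± 0.46, adjusted p = 2.89e-06). Hsd3b5, a liver steroid dehydrogenase, had 3700, 3802 and 2851 against 539, 370 and 255 (3.20 ± 0.46, adjusted p = 1.71e-05), with every refed library more than 5 times above every caged food library. Serpina4-ps1, a pseudogene next to the serpins on chromosome 12, rose by 2.93 ± 0.44, and Slc22a28, an organic anion transporter gene, by 2.56 ± 0.32. Clic3, Actg1 and Moxd1 were low in both groups. Actg1, cytoplasmic actin, had 207, 105 and 58 against 28, 11 and 15, and shares sequence with other actins and their pseudogenes, so its reads may be split. Moxd1, a monooxygenase-like protein, had 25, 271 and 22 against 1, 0 and 10. The difference of 4.28 ± 1.42 (adjusted p = 0.027) became 3.13 without refed replicate 2 (adjusted p = 0.156), and the call was also lost without caged food replicate 1 (adjusted p = 0.0822) or 2 (adjusted p = 0.113).

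Among falls outside the lists, Bmf, a BH3-only protein that promotes apoptosis, had 95, 120 and 194 in the refed and 1427, 1134 and 982 in the caged food libraries (-3.15 ± 0.35, adjusted p = 5.51e-07). Zbed5, a gene derived from a transposase, had 61, 121 and 92 against 667, 580 and 827 (-2.95 ± 0.20, adjusted p = 7.39e-10), with the smallest SE of the 12 largest falls. Rgs16, which shortens signals of G protein-coupled receptors and is known to rise in fasted liver, had 100, 32 and 132 against 573, 621 and 584 (-2.96 ± 0.62, adjusted p = 0.000967). In this gene the refed libraries were spread 4-fold and the caged food libraries hardly at all. Also lower were Upp2, a uridine phosphorylase (-2.49 ± 0.49), Krt23, a keratin (-2.51 ± 0.51), Rfx4, a transcription factor (-2.43 ± 0.39), and Hsd17b6, a retinol and steroid dehydrogenase (-2.41 ± 0.40). Of the 12 largest rises and 12 largest falls, all but Moxd1 stayed called in each of 16 alternative treatments of the data, the regrouping by treatment label set aside.

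The difference between eating and sensing was wider at 240 min than at earlier times by count. At 30 min 44 genes were called (0.276%). At 60 min there were 1738, 1072 higher (6.73%) and 666 lower (4.18%), and at 120 min 1797, 952 higher (5.98%) and 845 lower (5.30%). These counts moved with the libraries and the fit. At 30 min each library left out gave between 8 (without refed replicate 2) and 31 (without caged food replicate 2), and at 120 min 1111 were called without refed replicate 2 and 3303 with quality weights. At 60 min 465 were called when the compared groups were fitted alone, against 4202 at 240 min. The groups of each time are separate libraries, so 240 min shares none with 120 min. Of the genes called at 120 min 733 were higher at both times (77.0% of the 952 at 120 min, 31.5% of the 2329 at 240 min) and 621 lower at both (73.5% and 31.5%). Only 7 genes were called in opposite directions. Of the 2942 genes called at 240 min alone 2510 had the same sign at 120 min, and in 53 the 2 differences differed by the test of the difference itself. The median size of the difference over all genes was 0.26 at 240 min and 0.18 at 120 min, at the same median SE of 0.15.

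Testing the difference at 240 min against that at 120 min called 80 genes, 42 with a higher value at 240 min (0.264%) and 38 with a lower one (0.239%). That count depended on single libraries, with 20 without refed replicate 1 of 240 min and 148 without refed replicate 3 of 240 min. By list, more members were called at 240 than at 120 min for COPI and Golgi trafficking (22 against 8 higher), ribosome biogenesis (32 against 17), PPAR-alpha targets (16 against 5 lower), NRF2 targets (9 against 2 higher) and interferon-induced genes (14 against 1 higher). Only 2 interferon-induced genes, Oasl1 and Ddx58, and 1 lipogenesis gene, Fasn, were called by the test of the difference itself, and no member of the other lists was. Oasl1 lost that call in 8 of 22 alternatives, and the adjusted p of Fasn was near the threshold. The counts therefore do not show that the response of those other lists differed between the times. Gluconeogenesis (16 against 14 lower) and ER chaperones (20 against 18 higher) had counts alike at both times.

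**Figure D3:**
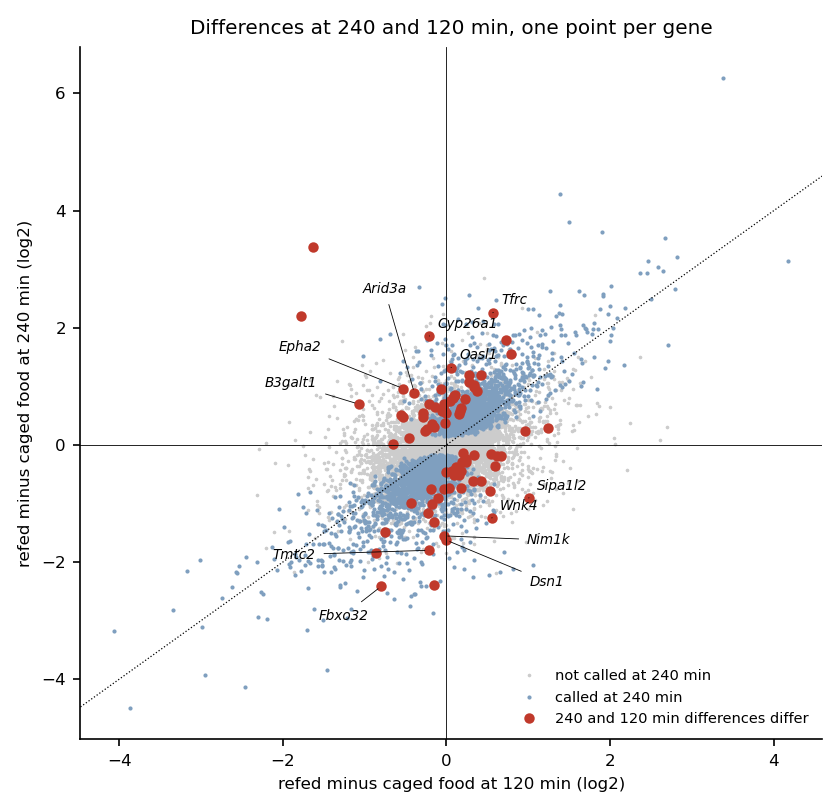
Refed minus caged food differences (log2) at 120 min, on the x axis, and 240 min, on the y axis, with 1 point per gene for 15932 genes. Blue points were called at 240 min, red points are the 80 genes whose differences at the 2 times differed, and the dotted line marks equal differences. Named red points are those given in the text, and the red points farthest to the upper left are genes of low values.

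Genes whose response differed between the times included some whose groups overlapped at 120 min. Tfrc, the transferrin receptor that imports iron, had 4288, 3275 and 4415 in refed and 2044, 3393 and 2758 in caged food livers at 120 min, which overlap. At 240 min it had 6826, 4577 and 5265 against 1013, 1254 and 1186 (2.26 ± 0.23, adjusted p = 1.65e-07). The caged food group was lower and the refed group higher than at 120 min. Cyp26a1, which clears retinoic acid, had 1154, 1157 and 925 against 315, 291 and 280 at 240 min (1.86 ± 0.31), after 545, 257 and 282 against 346, 551 and 321 at 120 min. Fbxo32, a ubiquitin ligase known as a FOXO target in muscle, had 38, 75 and 75 against 300, 324 and 346 at 240 min (-2.41 ± 0.21, adjusted p = 2.77e-08). Its 120 min values, 111, 162 and 203 against 277, 253 and 275, already did not overlap, with a smaller difference of -0.80. Tmtc2, a mannosyltransferase of the ER, and Nim1k, a kinase, had differences near 0 at 120 min (-0.21 and -0.035) and fell by 1.80 ± 0.17 and 1.55 ± 0.18 at 240 min. Sipa1l2 lay on opposite sides at the 2 times, with 395, 335 and 276 against 182, 165 and 149 at 120 min and 285, 305 and 383 against 617, 567 and 628 at 240 min. In that gene the caged food group moved more than the refed group. Fasn, with 2.93-fold at 240 min, stood at 0.78 on the log2 scale at 120 min and 1.55 at 240 min, an increase that passed the test narrowly (adjusted p = 0.0418).

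**Figure D4:**
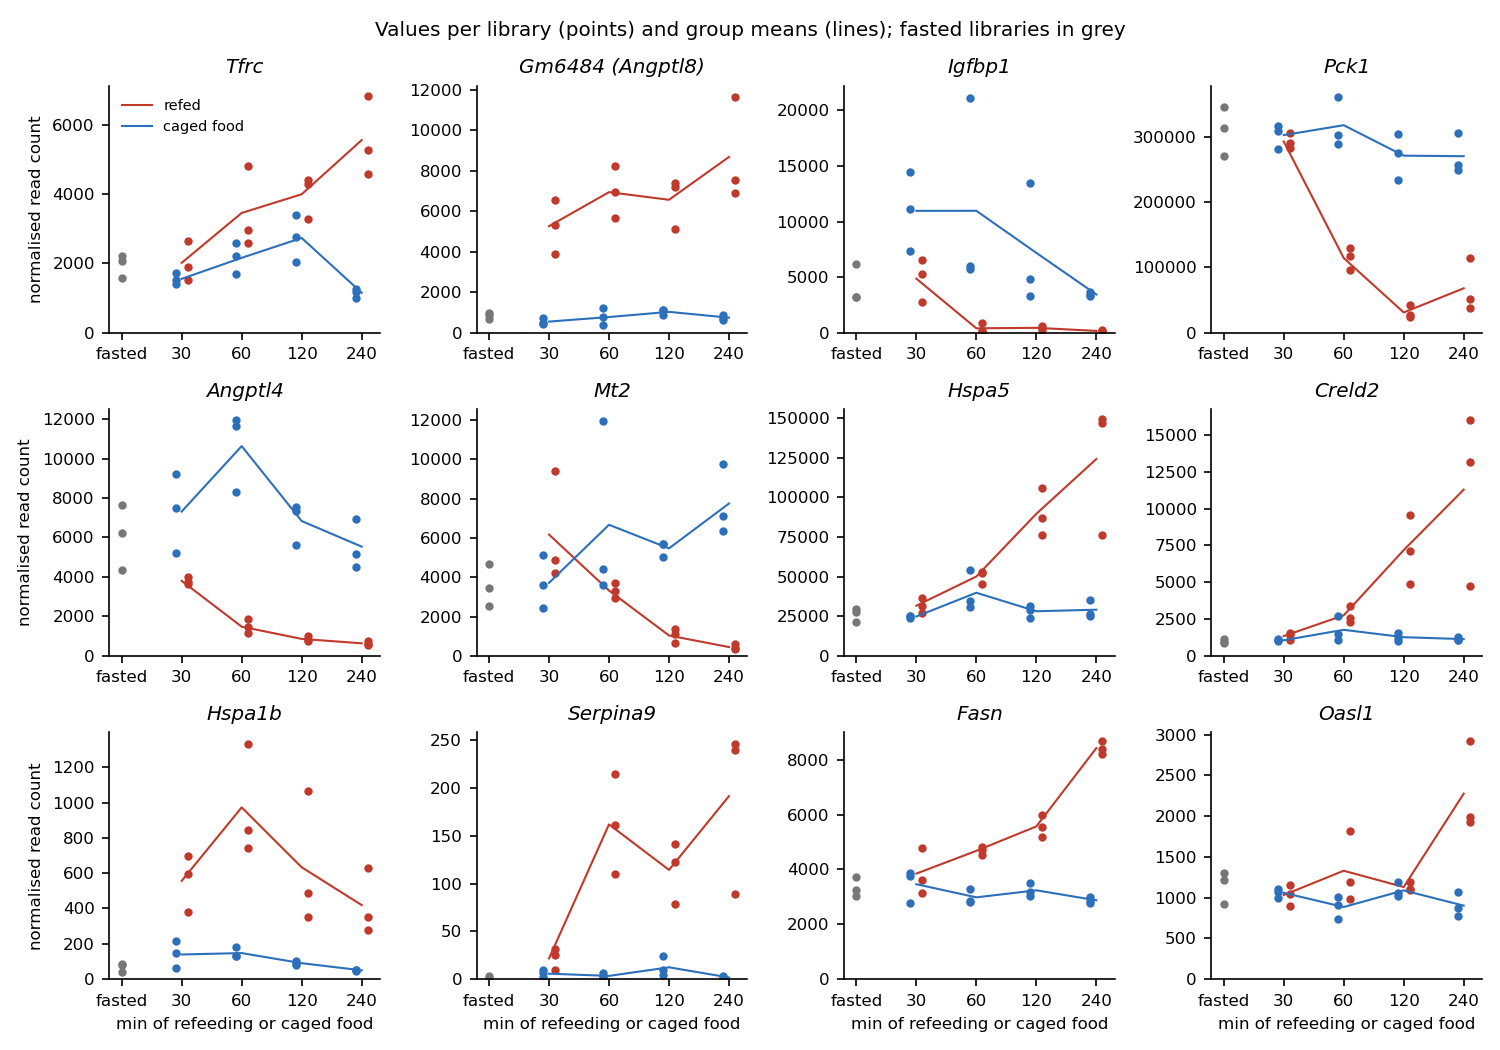
Normalised read counts of 12 genes in fasted livers (grey) and in refed (red) and caged food (blue) livers at 30, 60, 120 and 240 min, with 1 point per library, lines through group means and a linear axis from 0 for each gene. Hspa5, Creld2 and Fasn had their highest group means in refed livers at 240 min, whereas Hspa1b had higher group means at earlier times, and the caged food libraries of 240 min lie near the fasted libraries in most panels.

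Relative to fasted livers, the lists kept apart mainly on the refed side. The gluconeogenesis list had medians of -0.83, -0.60 and -0.70 from the fasted mean in refed replicates 1 to 3 and -0.079, -0.031 and -0.15 in caged food replicates 1 to 3. For heat shock the caged food medians were between -0.10 and 0.14, and for ribosome biogenesis between -0.13 and 0.0060. As no gene at all was called between caged food and fasted livers, no member of the 27 lists was either. The lists in which refed and caged food medians overlapped were acute phase, ATF4 targets, amino acid transporters, glycogen, metallothionein and zinc transport, bile acid, cell cycle and immediate early genes.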

How the data were processed

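RNA of mouse liver was sequenced as stranded mRNA libraries. Per the submitters' processing notes, reads were aligned with STAR 2.4.0a to mm10 (GRCm38) and assigned to genes with featureCounts 1.4.5-p1 of the Subread package. The deposited values are scores: read counts that the authors scaled by 1 factor per library and rounded, called normalised read counts here. Depth was estimated in each library from the step between low values. The precision of the comparisons is limited by 3 libraries a group. Genes with at least 10 in at least 3 of the 27 libraries were tested on log2(value + 1) with limma 3.58.1 (R 4.3.3) over all 9 groups, with an intensity trend and Benjamini-Hochberg adjustment over all genes tested. Fold changes are on that scale, which understates those of low genes. Libraries were grouped by title. Coordinates and promoters are of GRCm38. Figures used matplotlib 3.10.9.

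Genes named are the 12 largest rises and 12 largest falls among called genes whose groups do not overlap, where the higher group averaged 50 or more (predicted genes left out), the 6 largest called in each direction between 240 and 120 min under the same conditions, up to 5 members of lowest p per list, marker genes, and genes whose promoters hold the element printed. Others are said to be named after their values were seen. The members and lists were chosen with earlier results of these data known. Alternatives were another scaling, added value, filter, quality weights, a replicate block, fewer groups, other treatments of the libraries in conflict, leaving out each library, and, chosen after seeing the data, depth class as a term. Some genes that the rule names are not reported here.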

Additional observations from a re-analysis of the deposited data

Results flagged for a closer look

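In 12 genes the refed minus caged food difference at 240 min differed from that at 120 min by the test of the difference itself, with limma's adjusted p under 0.05. They are the 6 largest in each direction under the rule for named genes. Values are the difference at 240 min minus that at 120 min on the log2 scale, ± SE.

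Among genes with a higher value at 240 min, Cyp26a1, which clears retinoic acid, stood at 2.07 ± 0.43 (adjusted p = 0.0307). B3galt1, a galactosyltransferase, stood at 1.77 ± 0.32 (adjusted p = 0.0136), with 3211, 1646 and 2198 in caged food livers at 120 min against 1041, 1208 and 1119 at 240 min. Tfrc, the transferrin receptor, stood at 1.69 ± 0.32 and the ephrin receptor Epha2 at 1.49 ± 0.31. Epha2 had 2653, 2689 and 2249 in caged food livers at 120 min against 961, 1232 and 1006 at 240 min. Its refed values, 2447, 1251 and 1749 against 1907, 2253 and 2048, overlapped between the times. Arid3a, a DNA-binding protein, and Oasl1, an interferon-induced gene, both stood at 1.27, with SEs of 0.27 and 0.26. Arid3a had 206, 262 and 276 in caged food livers at 120 min against 136, 158 and 111 at 240 min. In refed livers it had 210, 175 and 179 against 261, 303 and 190.

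Among genes with a lower value at 240 min, Sipa1l2 stood at -1.91 ± 0.26 (adjusted p = 0.00343). Wnk4, a kinase that controls ion transport, stood at -1.80 ± 0.30, with 180, 188 and 107 in refed and 83, 113 and 121 in caged food livers at 120 min and 55, 68 and 59 against 157, 136 and 142 at 240 min. Dsn1, a kinetochore protein of low level, and Fbxo32, a ubiquitin ligase subunit, both stood at -1.62, with SEs of 0.32 and 0.30. Tmtc2 stood at -1.59 ± 0.24 and the kinase Nim1k at -1.52 ± 0.26.

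Over 22 alternatives, the regrouping by treatment label set aside, Sipa1l2, Tmtc2 and Wnk4 kept the call in each, with highest adjusted p of 0.0241, 0.0361 and 0.0474. Fbxo32 and Nim1k lost it in 1, B3galt1 in 2, Tfrc in 4, Dsn1 and Oasl1 in 8, Cyp26a1 in 9 and Arid3a and Epha2 in 10. The cause was not tested.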

How the results depend on the processing

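Beside the 4303 genes called at 240 min, quantile scaling gave 4254, an added value of 5 or 0.5 gave 4299 or 4316, no filter 3841, fitting the compared groups alone 4202, quality weights 5380 and depth class as a term 3653. The replicate block gave 4154. Residuals of libraries with the same number correlated at 0.027, -0.043 and 0.088, so the numbers were not taken to pair them. Leaving out 1 library at a time gave 3040 to 4009 genes at 240 min, 8 to 31 at 30 min, 1204 to 1700 at 60 min, 1111 to 1504 at 120 min, 2587 to 3395 for refed against fasted, 0 to 0 for caged food against fasted and 20 to 148 for the difference between 240 and 120 min. With the libraries in conflict grouped by treatment label, 1 gene was called at 240 min, 0 for refed and 1 for caged food against fasted, and 3 between the times. B3galt1 at 240 min then turned to -0.044 (adjusted p = 0.974) and the difference of Fasn between the times to -0.25 (adjusted p = 0.961). Caged food against fasted gave 1 gene without those libraries and 1 with no filter. Quality weights gave 88 genes at 30 min, 3303 at 120 min and 565 between the times. Fitting the compared groups alone gave 20 at 30 min, 465 at 60 min and 26 between the times. Depth class as a term, chosen after seeing the data, gave 23 between the times, and leaving out libraries of other groups that stood apart gave 19 at 30 min. With 20 genes in the score, refed replicates 1 to 3 had 1.06, 0.669 and 0.758 and caged food replicates 1 to 3 had -0.837, -0.854 and -0.792, on the same sides. Where a result moved, the cause was not tested. Values near 0, as of Serpina9 and Ppp1r3g, limit the precision of their fold changes.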
